A study of Mus musculus with 32 samples.

Results

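Coenzyme A (CoA) carries acyl groups through fatty acid oxidation, ketone body formation and the citric acid cycle, and the cell sets its amount by synthesis from pantothenate (vitamin B5) and by breakdown. Pantothenate kinases catalyse the first and controlling step, Ppcs and Ppcdc then add cysteine and remove a carboxyl group, and the bifunctional Coasy completes the molecule. Nudix hydrolases cut CoA and its acyl esters in peroxisomes, and pantetheinases of the vanin family return pantetheine to pantothenate. In liver the CoA content is known to rise on fasting.

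The 10 genes described here were chosen by name for their roles in these steps, and all 10 were among the 20076 genes of the count table: the kinase genes Pank1, Pank2 and Pank3, their relative Pank4, the synthesis genes Ppcs, Ppcdc and Coasy, the hydrolase genes Nudt7 and Nudt19, and the pantetheinase gene Vnn1. Acyl-CoA thioesterases were not included. All 10 passed the filter on low counts in every fit below.

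Liver RNA came from 32 male C57BL/6J mice in 8 groups of 4. WT mice and mice with a whole-body knockout of Acadm (MCAD-KO, below KO), the gene of medium-chain acyl-CoA dehydrogenase, received a low-fat control (LF) or a high-fat (HF) semisynthetic diet for 6 weeks and were then either fed or fasted for 16 h. The labels gave ages from 7.5 to 16, with no unit. Levels are given as CPM, the counts of 3′ tags of a gene relative to those of all genes that passed the filter, scaled by the trimmed mean of M values (TMM), and total counts ran from 2031053 to 4292200 per mouse. A 3′ tag count does not scale with transcript length. Shares and ratios between genes are given below only as tag counts within a library, to be compared between mice, and not as which gene has the higher level.

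The fits used 30 mice. KO HF fasted replicate 4 was left out because its library held heart markers at 37689 CPM in sum and hepatocyte markers at 858 CPM, against 46523 to 70302 CPM of the 10 hepatocyte markers in the 30 mice. WT LF fed replicate 2 was left out because earlier work on these counts had set it aside as an outlier. Its hepatocyte markers were at 33267 CPM and its TMM factor was 1.31, against 0.884 to 1.08 in the 30 mice. Its median correlation with its group, 0.894, was not the lowest, since KO LF fasted replicate 1 was kept with 0.873. Acadm, read as a check of the genotype labels, was counted 26 to 94 times in each of 15 KO libraries and 566 to 2752 times in each of 15 WT libraries, with no overlap. Among the 30 mice, markers of acinar pancreas summed to 17467 CPM in WT HF fasted replicate 2 and to 2544 CPM in KO HF fed replicate 1, and markers of adrenal cortex to 293 and 126 CPM in KO LF fasted replicates 3 and 4. These 4 mice were also left out in an added fit (26 mice). KO LF fasted replicate 1 also had the largest share of counts in its 10 highest genes (25.3%). The summed level of 24 liver targets of PPARα, a nuclear receptor that fatty acids activate on fasting, was 4906 to 11026 CPM in the 15 fed mice and 9475 to 71555 CPM in the 15 fasted mice. KO HF fasted replicate 1 (9475 CPM) and WT HF fasted replicate 2 (10449 CPM) were the fasted mice within the fed range.

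The members lie apart in the genome, on 8 chromosomes (GRCm38). The kinase genes are Pank1 (ENSMUSG00000033610) at chr19:34806940-34879455, Pank2 (ENSMUSG00000037514) at chr2:131262495-131299188 and Pank3 (ENSMUSG00000018846) at chr11:35769484-35791285, and their relative is Pank4 (ENSMUSG00000029056) at chr4:154964123-154980938. The other synthesis genes are Ppcs (ENSMUSG00000028636) at chr4:119418530-119422420, Ppcdc (ENSMUSG00000063849) at chr9:57385095-57440124 and Coasy (ENSMUSG00000001755) at chr11:101082565-101086619. The genes of breakdown are Nudt7 (ENSMUSG00000031767) at chr8:114133557-114154739, Nudt19 (ENSMUSG00000034875) at chr7:35547185-35556304 and Vnn1 (ENSMUSG00000037440) at chr10:23894688-23905343. All 10 are annotated as protein coding. Exons of Pank2 overlap those of Rnf24 on the other strand, and exons of Nudt19 overlap those of the antisense gene B230322F03Rik. The strand setting of the counting is not given in the sources used here, so reads of these pairs cannot be told apart. Rnf24 and B230322F03Rik had 231 and 225 counts over the 32 mice.

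Introns of 3 pantothenate kinase genes hold a microRNA gene on the same strand, and the mature 3p sequences are shown because the host gene Pank1 changed with fasting, while Pank2 and Pank3 were not called. Mir107 lies in Pank1 (chr19:34820687-34820773), Mir103-2 in Pank2 (chr2:131288052-131288137) and Mir103-1 in Pank3 (chr11:35782396-35782481). Mir103-1 and Mir103-2 give the same 3p sequence. The sequences are from RefSeq (GRCm38.p6), 5′ to 3′, with the seed (bases 2 to 8) in capitals.
miR-107-3p: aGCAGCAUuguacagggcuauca
miR-103-3p: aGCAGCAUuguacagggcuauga
Both share the seed GCAGCAU. The microRNAs themselves were not measured in these libraries.

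Fasting changed 4 of the 10 members when averaged over genotype and diet, 3 upwards and 1 downwards, where 18.9% of the 11566 genes tested were called (9.77% higher and 9.14% lower). Nudt7, a peroxisomal CoA hydrolase, fell by 1.88 on the log2 scale (SE 0.10, adjusted p = 4.6e-17 by edgeR's quasi-likelihood test), which was 3.67-fold, and had the smallest p of all genes tested. Vnn1, the pantetheinase, rose by 2.38 (SE 0.29, adjusted p = 1.2e-06), or 5.19-fold. Pank1, a pantothenate kinase, rose by 0.69 (SE 0.10, adjusted p = 1.1e-06), or 1.61-fold, and Ppcs, which joins phosphopantothenate and cysteine, by 0.40 (SE 0.13, adjusted p = 0.026), or 1.32-fold. The other 6 members had log2 fold changes between -0.14 (Pank3) and 0.12 (Coasy), with SEs of 0.08 to 0.28, none passed the test, and their smallest adjusted p was 0.26. The median over the 10 members was 0.10, against -0.0022 over all genes tested. Within the 2 sequencing lanes of the labels, the fits had terms for fasting, diet and genotype, without interactions. The change of Nudt7 was -1.69 in lane 7 and -1.95 in lane 8, and that of Vnn1 1.83 and 2.75. That of Pank1 was 0.68 and 0.73 and that of Ppcs 0.48 and 0.24. Vnn1 in lane 7 and Ppcs in both lanes did not pass the test. The 3 WT LF fed mice were all in lane 8, and with lane as a term the same number of members was called in every comparison. In RNA of whole liver, fewer cells that express a gene and less RNA per cell cannot be told apart.

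**Figure D1:**
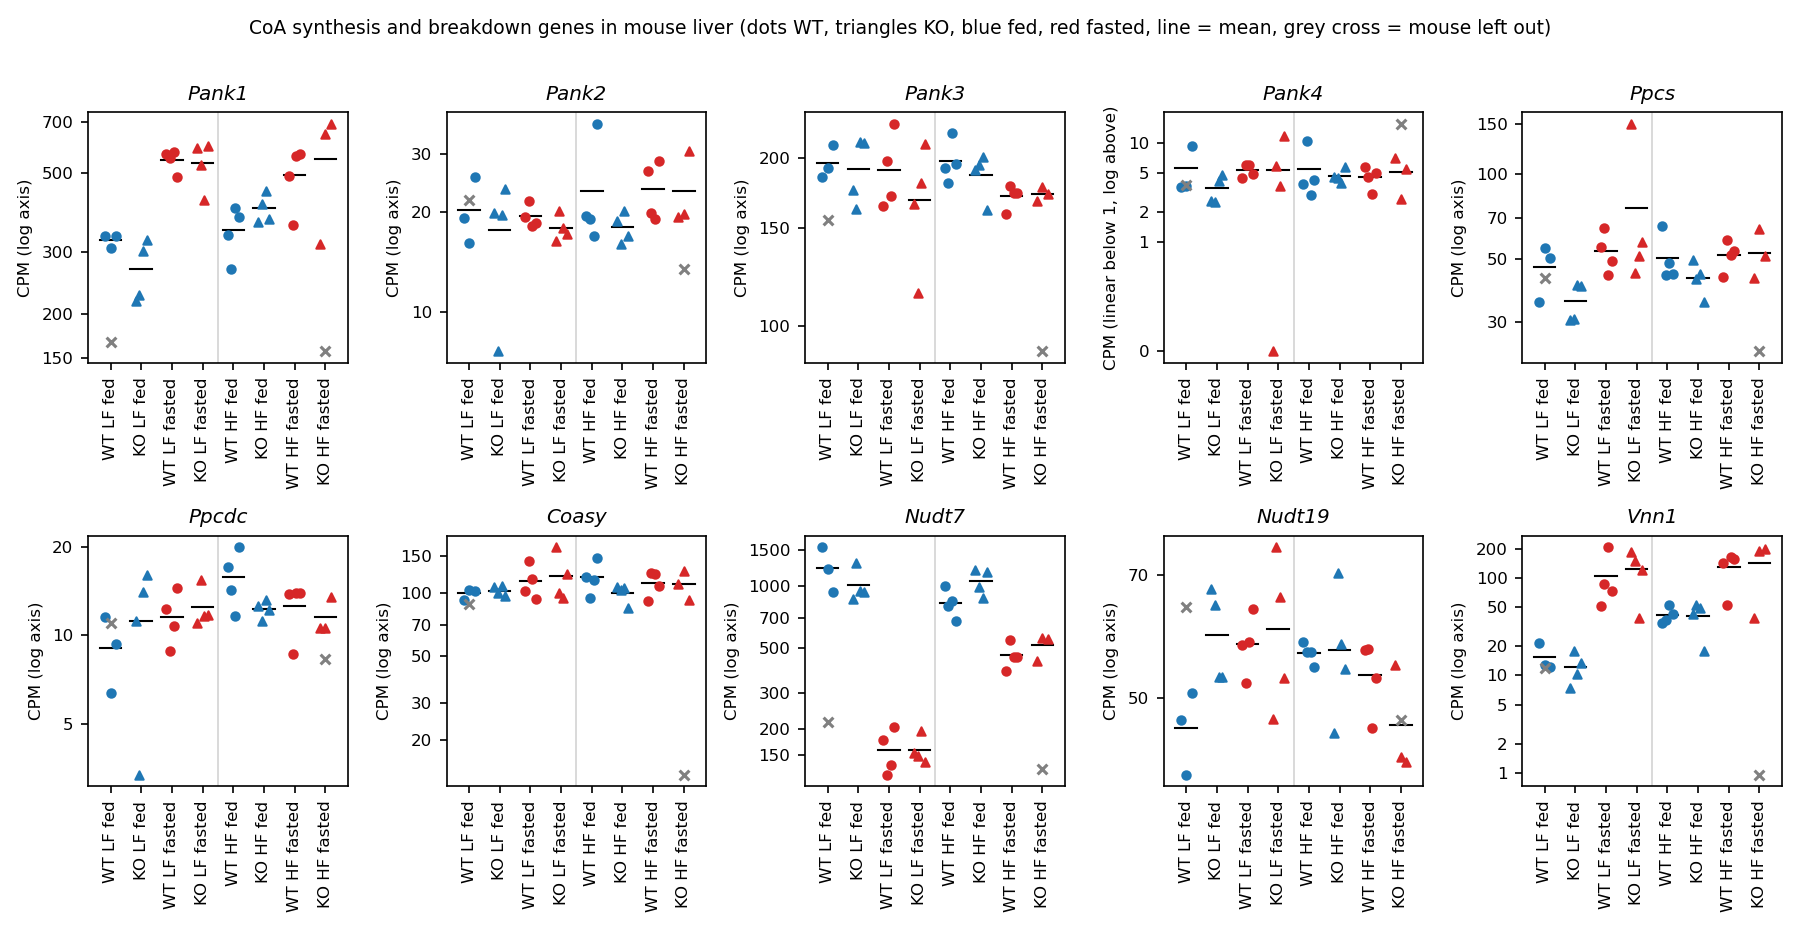
Level of each of the 10 genes in every mouse (CPM, log axis, for Pank4 linear below 1), with the 8 groups on the x axis, dots for WT, triangles for KO, blue for fed, red for fasted, a line for the group mean of the 30 mice and a grey cross for each mouse left out. Nudt7 separates all fasted from all fed mice of the 30, Vnn1 and Pank1 are mostly higher in fasted mice, and the ranges of fed and fasted mice overlap for the other genes.

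Nudt7 was the member with the clearest separation of the feeding states. In the LF fed groups its level was 1552, 1208 and 938 CPM in the 3 WT mice and 868, 1300, 943 and 938 CPM in the 4 KO mice. In the LF fasted groups it was 178, 120, 134 and 206 CPM in WT and 154, 149, 196 and 139 CPM in KO. On the HF diet the fed WT mice had 1000.5, 796, 843 and 678 CPM and the fed KO mice 1206, 996, 875 and 1168 CPM. All 15 fasted mice lay below all 15 fed mice. The HF fasted mice, with 386, 549, 452 and 452 CPM in WT and 432, 558 and 555 CPM in KO, formed a level of their own between the LF fasted and the fed mice. In the order of the 8 group means, 2 of the 7 neighbouring pairs did not overlap: WT LF fasted and WT HF fasted, and KO HF fasted and WT HF fed. The order of the 2 LF fasted groups (159 ± 25 CPM in KO, SD, n = 4, and 160 ± 40 in WT, n = 4), of the 2 HF fasted groups (460 ± 67 in WT, n = 4, and 515 ± 72 in KO, n = 3) and of the 4 fed groups (829 ± 133 in WT HF, 1012 ± 195 in KO LF, 1061 ± 155 in KO HF, n = 4 each, and 1233 ± 308 in WT LF, n = 3) was within the spread between mice.

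The fasting change of Nudt7 was significant in each genotype and diet, and it was smaller on the HF diet. On the LF diet Nudt7 fell by 2.95 in WT (SE 0.20, adjusted p = 4.7e-13, where 7.54% of genes were called) and by 2.67 in KO (SE 0.19, adjusted p = 1.7e-12, where 13.8% were called). On the HF diet the log2 fold change was -0.85 in WT (SE 0.18, adjusted p = 0.017, where 0.424% were called) and -1.04 in KO (SE 0.20, adjusted p = 0.0088, where 0.527% were called). The difference between the diets, tested as the fasting by diet interaction, was 1.86 (SE 0.19, adjusted p = 3.0e-08), and Nudt7 was the only member called there, where 2.46% of genes were called (1.26% higher and 1.20% lower). In each of these 4 comparisons the fed and fasted ranges did not overlap, and the two-sided exact permutation test gave p = 0.0286, the smallest that 4 against 4 or 4 against 3 mice allow. Both HF calls depended on single mice. Leaving out any one of WT HF fed replicates 1 and 3 or WT HF fasted replicates 1, 3 and 4 gave adjusted p of 0.078 to 0.12 in WT, and leaving out KO HF fasted replicate 3 gave 0.051 in KO. With the left-out mice put back (32 mice) Nudt7 had adjusted p of 0.89 in WT HF and 0.098 for the interaction, which was then 1.54, and it was not called in KO HF.

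Vnn1 showed the widest range of the members. Its level was 21.4, 12.7 and 12.3 CPM in the WT LF fed mice and 7.37, 17.7, 10.3 and 13.5 CPM in the KO LF fed mice. After fasting it was 51.4, 86.6, 208 and 73.6 CPM in WT and 186, 148, 39.0 and 120 CPM in KO. Fed and fasted mice did not overlap on the LF diet, where Vnn1 rose by 2.74 in WT (SE 0.62, adjusted p = 0.0061) and by 3.35 in KO (SE 0.58, adjusted p = 3.2e-04).

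On the HF diet the ranges of fed and fasted mice overlapped for Vnn1. The fed mice had 34.6, 37.0, 53.3 and 43.0 CPM in WT and 42.6, 53.5, 49.9 and 17.6 CPM in KO, and the fasted mice 142, 52.7, 163 and 157 CPM in WT and 39.0, 188 and 200.1 CPM in KO. The log2 fold changes with fasting were 1.61 in WT (SE 0.52, adjusted p = 0.22) and 1.80 in KO (SE 0.55, adjusted p = 0.21), neither of which passed the test. The low values among the HF fasted mice were those of WT HF fasted replicate 2, with its pancreas markers, and of KO HF fasted replicate 1. Without the latter mouse Vnn1 passed the test in KO (adjusted p = 0.037). The interaction of fasting with diet was -1.34 for Vnn1 (SE 0.56, adjusted p = 0.27), so a difference between the diets was not established.

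Pank1, the pantothenate kinase gene known as a PPARα target, was at 332, 307 and 332 CPM in the WT LF fed mice and at 218, 226, 301 and 324 CPM in the KO LF fed mice. After fasting it was at 569, 554, 575 and 487 CPM in WT and at 592, 529, 420 and 597 CPM in KO, with no overlap with the fed mice of either genotype. The log2 fold change was 0.76 in WT (SE 0.21, adjusted p = 0.015) and 1.0006 in KO (SE 0.19, adjusted p = 2.2e-04). The call in WT was lost by leaving out WT LF fed replicate 1, 3 or 4, with adjusted p of 0.0501, 0.084 and 0.055. With all 32 mice the adjusted p was 0.094 in WT and 0.051 in KO. The log2 fold change of Pank1 stayed between 0.72 and 0.94 in WT and between 0.91 and 1.11 in KO over the 41 alternatives run.

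On the HF diet Pank1 was at 334, 268, 399 and 377 CPM in the fed and 491, 356, 561 and 568 CPM in the fasted WT mice. The KO mice had 363, 411, 445 and 372 CPM when fed and 316, 644 and 691 CPM when fasted. The log2 fold changes were 0.52 in WT (SE 0.19, adjusted p = 0.27) and 0.47 in KO (SE 0.20, adjusted p = 0.52), and neither passed the test. The lowest fasted mice were KO HF fasted replicate 1 (316 CPM), below all fed mice of its genotype and diet, and WT HF fasted replicate 2 (356 CPM), within the range of its fed group. These are the 2 fasted mice whose PPARα target sums lay within the fed range. WT HF fasted replicate 2 also had acinar pancreas markers at 17467 CPM. A link of either trait to the Pank1 level was not tested. Over both diets and genotypes 12 of 15 fasted mice lay above all 15 fed mice, and KO LF fasted replicate 3 (420 CPM) was the other exception. Without KO HF fasted replicate 1 Pank1 passed the test in KO HF (adjusted p = 0.043), while without WT HF fasted replicate 2 no further member did so in WT HF. The fasting by diet interaction of Pank1 was -0.38 (adjusted p = 0.40). Of all tags counted in the 4 Pank genes of a mouse, Pank1 made up 52.4% to 66.8% in fed mice (median 60.8%) and 62.0% to 79.0% in fasted mice (median 73.3%).

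Ppcs was called with fasting in the KO LF mice alone, and that call rested on 1 mouse. Its level after fasting was 150, 44.6, 51.2 and 57.5 CPM, against 30.4, 30.8, 40.5 and 40.4 CPM when fed, with no overlap. The log2 fold change was 1.08 (SE 0.25, adjusted p = 0.0026). Without KO LF fasted replicate 1, the mouse at 150 CPM, it was 0.52 (adjusted p = 0.072). The averaged fasting effect without that mouse was 0.26 (adjusted p = 0.043). It was 0.36 and not called without WT LF fed replicate 1 (adjusted p = 0.061) or without KO HF fasted replicate 2 (adjusted p = 0.062), nor was it called with all 32 mice (adjusted p = 0.097). In WT the LF fed mice had 35.3, 54.7 and 50.6 CPM and the LF fasted mice 55.1, 64.6, 44.0 and 49.4 CPM, which overlapped (log2 fold change 0.19, adjusted p = 0.78).

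**Figure D2:**
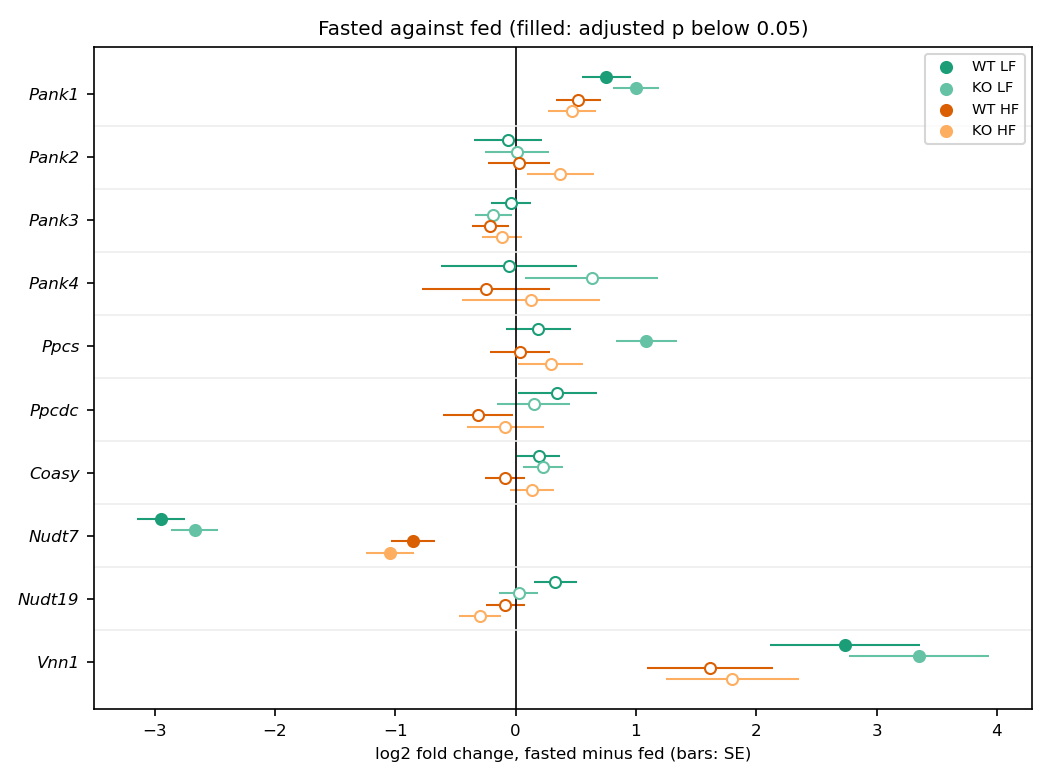
Log2 fold change of fasted against fed mice (x axis, bars are SE) for each of the 10 genes (y axis) in WT LF, KO LF, WT HF and KO HF mice, with filled points for an adjusted p below 0.05 over all genes tested. Nudt7 lies left of 0 in all 4 comparisons, near -3 on the LF diet and near -1 on the HF diet, and Vnn1 and Pank1 lie to the right.

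Pank2, Pank3, Pank4, Ppcdc and Coasy were called in none of the comparisons. Pank2 was at 7.59 to 37.0 CPM and Pank3 at 115 to 231 CPM, and their highest group means were 1.34 and 1.17 times the lowest. Pank4, which is not known to act as a pantothenate kinase, was at 0 to 11.7 CPM. It had 0 counts in KO LF fasted replicate 1, which allows up to 1.32 CPM in that library by a floor of 3 counts, for counting error only. Ppcdc, the decarboxylase, was at 3.37 to 19.9 CPM from 8 to 60 counts per mouse, so its level is the less precise. Coasy, with both last steps of synthesis, was at 85.0 to 165 CPM and its highest group mean was 1.21 times the lowest. For these 5 genes the largest log2 fold change with fasting in any genotype and diet was 0.63 (Pank4 in KO LF, SE 0.55, adjusted p = 0.52). The difference of mean log2 CPM (prior count 1) for Pank4 in KO LF was -0.22, so its sign depends on the scale. Pank3 did not overlap between the fed (181 to 222 CPM) and fasted (159 to 178 CPM) WT HF mice, with a log2 fold change of -0.21 (adjusted p = 0.76).

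Nudt19, the other peroxisomal CoA hydrolase of the set, was not called with fasting. Its level was 40.6 to 70.3 CPM in the fed mice (median 54.4) and 42.0 to 75.5 CPM in the fasted mice (median 54.8), and these ranges overlapped. In WT LF mice alone they did not, with 40.6 to 50.6 CPM when fed and 52.1 to 63.8 CPM when fasted. The averaged log2 fold change with fasting was -0.0055 (SE 0.08, adjusted p = 0.98). Its values by genotype and diet ran from -0.29 in KO HF to 0.33 in WT LF, with adjusted p of 0.31 or more.

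The HF diet changed 1 member when averaged over genotype and feeding state, where 3.49% of genes were called. Nudt7 was higher on the HF diet by 0.68 (SE 0.09, adjusted p = 2.0e-05), or 1.60-fold. The value differed with the feeding state, as the interaction given above shows. In fasted mice Nudt7 was higher by 1.52 in WT (SE 0.19, adjusted p = 7.4e-06, where 1.12% of genes were called) and by 1.69 in KO (SE 0.20, adjusted p = 2.2e-06, where 1.68% were called), and it had the smallest p of all genes in both. With all 32 mice it was called in neither, at 1.52 in WT (adjusted p = 0.19) and 1.39 in KO (adjusted p = 0.062). In fed mice the values were -0.57 in WT (SE 0.19, adjusted p = 0.62, where 0.0778% were called) and 0.07 in KO (adjusted p = 0.98, where 0.00865% were called). Within lanes the averaged value, from a fit without interaction terms, was 0.98 in lane 7 (adjusted p = 0.076) and 0.61 in lane 8 (adjusted p = 0.57). It was called in neither lane of 16 and 14 mice. That fit leaves out the fasting by diet interaction of Nudt7, and why the call was lost was not tested. With all 32 mice in the model of 8 groups the adjusted p of the average was 0.088.

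In fed WT mice the diets did not overlap for Vnn1, Nudt19 and Ppcdc, none of which was called. The share of all genes without overlap in these mice was not computed, so the ranges are given as a description. All 3 WT LF fed mice were in lane 8, against 1 of the 4 WT HF fed mice, so diet and lane are partly confounded there. For Vnn1, WT HF fed mice (34.6 to 53.3 CPM) did not overlap with WT LF fed mice (12.3 to 21.4 CPM), and the log2 difference was 1.43 (SE 0.61, adjusted p = 0.87). In KO the ranges were 17.6 to 53.5 CPM and 7.37 to 17.7 CPM, which just overlapped, with a log2 difference of 1.75 (SE 0.58, adjusted p = 0.41). Nudt19 was at 54.4 to 58.3 CPM in WT HF fed and 40.6 to 50.6 CPM in WT LF fed mice (log2 difference 0.29, SE 0.18, adjusted p = 0.99), and Ppcdc at 11.6 to 19.9 CPM and 6.37 to 11.5 CPM (0.77, SE 0.33, adjusted p = 0.83). The average of Vnn1 over all conditions was 0.92 (SE 0.28, adjusted p = 0.070). It passed the test without KO HF fasted replicate 1, without WT HF fasted replicate 2 or without WT LF fasted replicate 3, and with DESeq2. Pank1 in fed KO mice was at 363 to 445 CPM on the HF and 218 to 324 CPM on the LF diet, with no overlap and a log2 difference of 0.57 (SE 0.19, adjusted p = 0.39).

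The opposite changes of Pank1 and Nudt7 can be read within each library as a ratio of their counts, given here as a description. The ratio was 0.214 to 0.354 in WT and 0.173 to 0.345 in KO LF fed mice, and 2.36 to 4.60 in WT and 2.14 to 4.29 in KO LF fasted mice. On the HF diet it was 0.334 to 0.556 in WT and 0.301 to 0.509 in KO fed mice, and 0.649 to 1.27 in WT and 0.733 to 1.25 in KO fasted mice. All fasted mice had a higher ratio than all fed mice of the 30. In WT LF fed replicate 2, which was left out, Pank1 had 528 counts and Nudt7 692, so its ratio lay within the HF fasted range. The fasted mice of the LF diet all had a higher ratio than those of the HF diet.

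**Figure D3:**
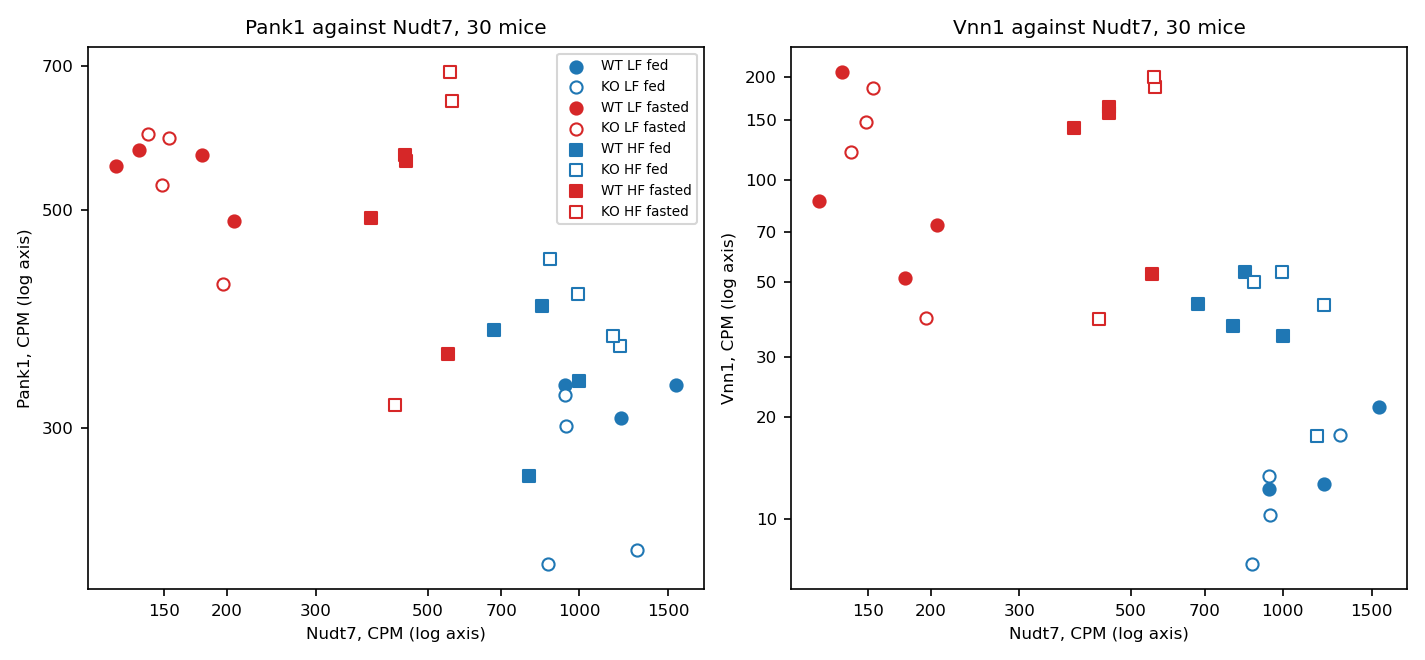
Pank1 (left) and Vnn1 (right) on the y axis against Nudt7 on the x axis, all in CPM on log axes, with a point for each of 30 mice, circles for LF, squares for HF, filled for WT, open for KO, blue for fed and red for fasted. Fed mice lie at the right, LF fasted mice at the upper left and HF fasted mice between them, with 2 HF fasted mice at Pank1 of 356 and 316 CPM below the others.

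The KO to WT difference of the members was not detectable in any condition. None of the 10 was called in any of the 4 comparisons, where the background was 0.0193% of 10366 genes in LF fed mice, 0.0104% of 9639 in LF fasted, 0.00998% of 10024 in HF fed and 0.00960% of 10413 in HF fasted mice. DESeq2 and limma voom called none either, and the average over conditions called none (0.00865% of genes). These shares stand for 2, 1, 1 and 1 genes, and for 1 gene on average, and the deleted gene Acadm was called in each. Calls were thus rare among all genes, so 0 of 10 does not set the members apart from them. At an unadjusted p below 0.05 by edgeR there was 1 member in LF fed mice (Nudt19, log2 difference 0.37, SE 0.17, adjusted p = 0.87) and 1 in HF fed mice (Nudt7, 0.36, SE 0.15, adjusted p = 0.999), and 0 in the other comparisons. Nudt19 was at 52.9 to 67.3 CPM in KO and 40.6 to 50.6 CPM in WT LF fed mice, with no overlap. The lowest of all 40 differences was -0.65 for Pank4 in LF fed mice (SE 0.54) and the highest 0.50 for Ppcs in LF fasted mice (SE 0.34), the comparison that holds the mouse at 150 CPM. SEs ran from 0.13 to 0.67, which bounds what 4 against 4 or 4 against 3 mice could show.

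**Figure D4:**
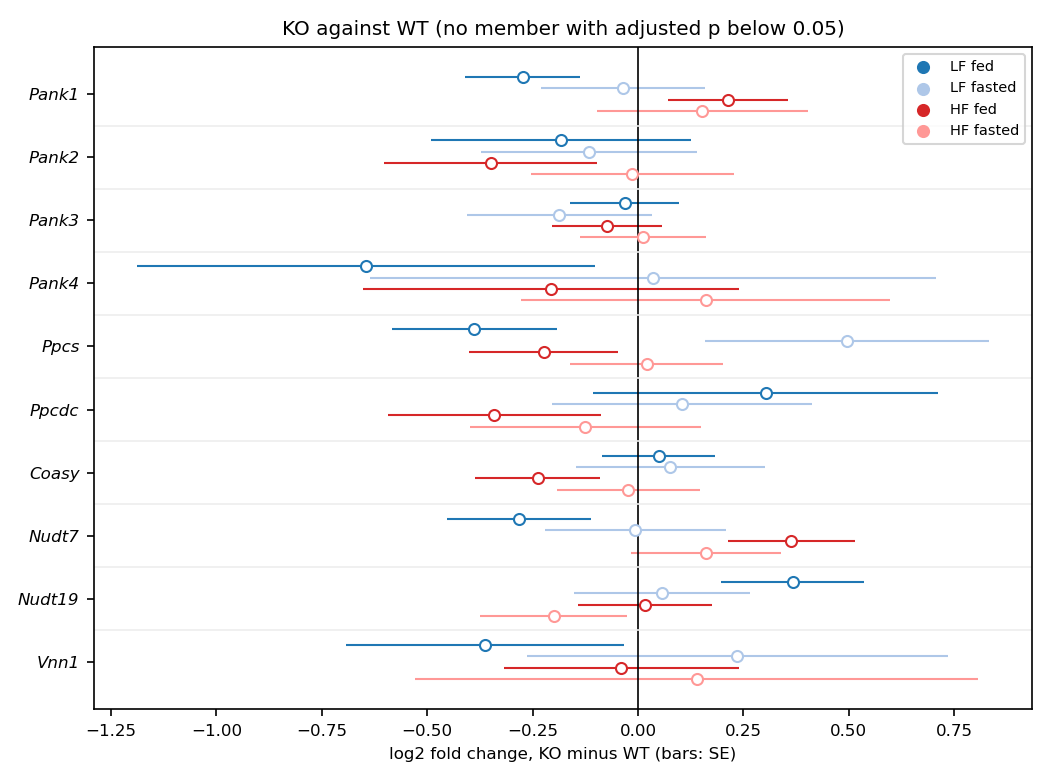
Log2 fold change of KO against WT mice (x axis, bars are SE) for each of the 10 genes (y axis) in fed and fasted mice of the LF and the HF diet. Open points mark an adjusted p of 0.05 or more, and none of the 40 points is filled.

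The fasting response of the members was not found to differ between genotypes. The fasting by genotype interaction called 0 members and 0 of 11566 genes by edgeR (0.00%), with 1 member (Ppcs, 0.58, SE 0.26, adjusted p = 0.98) and 573 genes at an unadjusted p below 0.05. The diet by genotype interaction also called 0 members and 0 genes (0.00%), with 1 member (Nudt7, 0.40, SE 0.19, adjusted p = 0.99997) and 397 genes at an unadjusted p below 0.05. DESeq2 and limma voom called 0 members in both.

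Other genes of CoA supply, transport and use were read from a list of 9, of which 8 were in the table. With fasting 3 rose and 2 fell, where 9.77% of all genes tested were called higher and 9.14% lower. Dcakd, with a dephospho-CoA kinase domain, rose by 0.56 (adjusted p = 0.0017), Slc25a42, the mitochondrial CoA carrier, by 0.55 (adjusted p = 0.0098), and Vnn3, a relative of Vnn1, by 0.42 (adjusted p = 0.0014). Slc25a17, the peroxisomal CoA carrier, fell by 0.57 (adjusted p = 6.0e-05), and Aasdhppt, which moves the phosphopantetheine arm of CoA onto carrier proteins, by 0.28 (adjusted p = 0.048). Slc5a6, Slc25a16 and Ado had values of -0.16, 0.12 and 0.09 and did not pass. The list median was 0.10, against -0.0022 over all genes. Slc25a17 also showed a fasting by diet interaction (0.75, adjusted p = 0.038), with a fall of 0.80 in WT LF and 1.08 in KO LF mice and values of -0.05 in WT HF and -0.33 in KO HF mice. No gene of this list was called for diet or genotype on average.

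The PPARα targets were read beside the members because Pank1 and Vnn1 are known targets of that receptor. Of 24 genes 23 rose with fasting and none fell, with a median of 1.37, where 9.77% of all genes tested were called higher. Among the genes with the smallest p-values were Acsl1 (1.52), which activates fatty acids, Slc25a20 (1.15), the mitochondrial carnitine carrier, Cpt1a (1.40) and Cpt2 (1.06), which carry acyl groups into mitochondria, and the fatty acid hydroxylase gene Cyp4a31 (4.16). Pdk4 did not pass (0.32, adjusted p = 0.64). On average over genotype and feeding state 1 gene of the list was called for diet, Aldh3a2 (0.79, adjusted p = 0.0044). The fasting by diet interaction was lower than 0 and called for 12 of the 24, where 1.20% of all genes tested were called lower. This list was chosen with earlier results of these data known, and for a receptor that is active on fasting. Its counts are therefore a description and not a test.

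The genes most like each changed member over the log2 CPM of 30 mice differed between members. For Pank1 they included Plin2 (Pearson r 0.93), a lipid droplet coat protein, and Nceh1 (0.91), and after the group means were taken away the r were 0.87 and 0.77. For Vnn1 they were Vwa8 (0.95), Eci2 (0.92), an enoyl-CoA isomerase, and Aldh3a2 (0.92), with 0.83, 0.80 and 0.71 within groups. For Nudt7 they were Stard4 (0.95), a sterol transfer protein, Keg1 (0.95) and Hsd3b5 (0.94), a steroid dehydrogenase, and within groups 0.14, 0.43 and 0.25. For Ppcs they were Sgta, Psmc3 and Dhrs4 (0.83, 0.83 and 0.81), but without KO LF fasted replicate 1, the mouse at 150 CPM, these r fell to 0.63, 0.62 and 0.63, and the most like genes were Ppp2r2d (0.72), Adtrp (0.70) and Fam169b (0.70). Plin2 and Aldh3a2 are also on the list of PPARα targets. These r are over 11498 genes and over mice that share the fed and fasted groups, and carry no test.

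Promoter windows of 250 bases before to 50 after the start site were available for 8 members, and those of Pank1, Nudt7 and Ppcs are shown because these genes changed with fasting. They are from RefSeq (GRCm38.p6), 5′ to 3′ on the strand of the gene, with every match to the searched motifs in capitals. The motifs, searched on both strands, were the direct repeat bound by PPARα with its partner (AGGTCANAGGTCA), the single site within it (AGGTCA), the E-box (CACGTG), the CCAAT box (CCAAT) and the GC box (GGGCGG). A direct repeat also holds the single site.
Pank1, chr19:34879406-34879705, minus strand: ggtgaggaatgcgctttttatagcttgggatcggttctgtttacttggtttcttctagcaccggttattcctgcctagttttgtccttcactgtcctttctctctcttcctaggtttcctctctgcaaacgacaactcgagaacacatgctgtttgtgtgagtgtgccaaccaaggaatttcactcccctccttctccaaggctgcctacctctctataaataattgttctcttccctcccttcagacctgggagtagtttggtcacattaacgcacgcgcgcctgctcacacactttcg
Pank1, chr19:34877868-34878167, minus strand: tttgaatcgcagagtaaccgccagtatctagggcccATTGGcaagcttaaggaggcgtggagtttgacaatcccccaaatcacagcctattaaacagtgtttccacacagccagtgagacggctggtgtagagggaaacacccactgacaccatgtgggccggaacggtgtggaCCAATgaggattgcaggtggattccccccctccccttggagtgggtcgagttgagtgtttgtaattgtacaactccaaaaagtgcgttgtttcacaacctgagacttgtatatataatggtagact
Nudt7, chr8:114133368-114133667, plus strand: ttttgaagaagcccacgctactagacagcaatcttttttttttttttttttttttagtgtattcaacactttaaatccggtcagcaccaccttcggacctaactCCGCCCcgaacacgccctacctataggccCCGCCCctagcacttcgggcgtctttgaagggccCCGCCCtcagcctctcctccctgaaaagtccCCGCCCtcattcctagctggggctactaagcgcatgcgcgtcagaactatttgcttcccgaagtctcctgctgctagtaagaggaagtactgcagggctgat
Ppcs, chr4:119422371-119422670, minus strand: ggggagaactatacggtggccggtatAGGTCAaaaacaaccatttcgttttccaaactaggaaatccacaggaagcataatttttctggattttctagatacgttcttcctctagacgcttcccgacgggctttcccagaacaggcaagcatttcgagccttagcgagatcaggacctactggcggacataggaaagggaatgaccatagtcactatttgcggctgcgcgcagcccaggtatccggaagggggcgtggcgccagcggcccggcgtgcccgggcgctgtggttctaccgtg
The first Pank1 window held none of the motifs and the second held CCAAT 2 times, once on each strand. The Nudt7 window shown held GGGCGG 4 times, each on the other strand as CCGCCC, and the Ppcs window held AGGTCA once. A further Nudt7 window, chr8:114133324-114133623, overlaps the one shown and held the same 4 sites. Of all 32817 windows of this length 37.4% held CCAAT, 35.6% GGGCGG, 16.3% AGGTCA and 7.15% CACGTG. The full direct repeat was in 0.0396% of all windows and in none of the 8 members, which says only that these letters are not in these windows.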

How the data were processed

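The authors isolated RNA from freeze-clamped liver, made 3′ libraries (Lexogen QuantSeq) and sequenced single reads. Reads were mapped to GRCm38 with HISAT 0.1.5, sorted with SAMtools 1.2 and counted per gene with HTSeq 0.6.1p1 in union mode. The authors deposited these counts as whole numbers, without normalization, for 20076 genes. The strand setting is not given in the sources used here. GENCODE on the same build gave symbols for 19913 identifiers, and the 163 others carried 0.125% of counts. The 3′ design counts transcript ends, so isoforms with other ends are not told apart.

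Groups, replicates and lanes were taken from the labels. Mice of a group were separate animals, and no pair of libraries agreed within sampling noise. The members and gene lists were chosen with earlier results of these data known. All 10 members were named, with up to 6 genes per context list by smallest p with fasting, any called for diet or genotype, and the 3 most correlated genes per changed member. Some genes that this rule names are not reported here.

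The test was edgeR 4.0.16 (R 4.3.3): TMM, the filterByExpr filter and robust quasi-likelihood fits of 8 group means of 30 mice, with Benjamini-Hochberg adjustment over all genes and a threshold of 0.05. KO to WT differences were fitted on the 7 or 8 mice of the condition. SEs are the log2 fold change over the root of F. The exact permutation tests used the absolute difference of mean log2 CPM (prior count 1), two-sided, over 120 comparisons, without adjustment. Alternatives were DESeq2 1.42.0, limma 3.58.1 voom, other scaling and filters, lane, age and replicate terms, other sets of mice, and each mouse left out in turn. Fits within a lane had terms for fasting, diet and genotype only, without interactions. The lanes are the 2 of the labels, 16 mice each, where the methods describe pools of 8. The fits were tested on simulated data. CPM of the mice left out were scaled with all 32 mice.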

Additional observations from a re-analysis of the deposited data

Results flagged for a closer look

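The fasting change of Nudt7 differed between the diets, with an interaction of 1.86 on the log2 scale. The mean level fell from 1233 to 160 CPM in WT LF and from 1012 to 159 CPM in KO LF mice, against 829 to 460 CPM in WT HF and 1061 to 515 CPM in KO HF mice.

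In 6 of 60 sets of 4 mice a single mouse stood far from the other 3 of its group, where chance alone gives about 1 in 20. These were Ppcs in KO LF fasted replicate 1 (150 CPM, others 44.6 to 57.5), Ppcdc in KO LF fasted replicate 2 (15.5 CPM, others 11.0 to 11.7) and in WT HF fasted replicate 2 (8.65 CPM, others 13.8 to 14.0), Pank2 in WT HF fed replicate 4 (37.0 CPM, others 17.0 to 19.4), Pank4 in WT HF fed replicate 2 (10.6 CPM) and Coasy in KO HF fed replicate 4 (85.0 CPM). The Ppcdc and Pank4 values rest on few counts. WT HF fasted replicate 2 is the mouse with acinar pancreas markers at 17467 CPM, and their part in its Ppcdc value was not tested.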

How the results depend on the processing

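No direction reversed. Of 707 values under the alternatives, for 17 single-gene results that were all called in the main fits, 679 stayed called and 28 lost the call. Calls gained under an alternative are not in this count. Many of the values leave out a mouse that is not in the comparison, which could change them little. All 32 mice include the library with heart markers, and with them 13.5% of all genes were called with fasting on average (18.9% in the 30 mice). With all 32 mice 0 members were called for fasting in WT HF and in KO HF, for diet on average, in fasted WT and in fasted KO mice, and for fasting by diet, where the main value was 1 in each. The shares of all genes in these comparisons with 32 mice are not given here. There Nudt7 kept its direction (interaction 1.54, adjusted p = 0.098). With 31 mice (WT LF fed replicate 2 put back), where 18.2% of all genes were called with fasting on average, 0 were called for fasting in WT HF and in KO HF. DESeq2 called 2 for diet on average. Within lane 7, where 3.45% of all genes were called with fasting (18.9% in all 30 mice), fasting called 2 members in place of 4 (Pank1 0.68, Nudt7 -1.69, Vnn1 1.83 with adjusted p = 0.073), within lane 8, where 13.0% were called, it called 3 (Pank1 0.73, Nudt7 -1.95, Vnn1 2.75), and diet called 0 in each lane. Ppcs was called in neither lane (adjusted p = 0.42 and 0.25). The fits within lanes had no interaction terms, unlike the main fits, and the cause was not tested. Without the 4 mice with pancreas or adrenal markers, chosen after these were seen, each count was as in the main fits. In that fit 17.9% of all genes were called with fasting on average. Leaving out each mouse in turn gave 3 to 4 members for fasting on average, where 16.5% to 21.0% of all genes were called. It gave 0 to 1 for fasting in WT HF, 0 to 3 for fasting in KO HF and 1 to 2 for diet on average. The shares of all genes under these alternatives are given here only for fasting on average.

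Same-numbered mice did not deviate together (14 pairs, median r -0.0065, range -0.12 to 0.13), so no pairing by number was detected, though 14 pairs cannot exclude it. The fit with the replicate number as a block called 4 members for fasting, 1 for diet and 0 for genotype, as without it. That fit called 18.4% of all genes with fasting on average. Ppcdc and Pank4 are limited by depth, with as few as 8 and 0 counts.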

Other observations

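The 2 mice left out differed from their groups in several members. WT LF fed replicate 2 had Nudt7 at 218 CPM and Pank1 at 167 CPM, both below the other fed mice, and Vnn1 at 12.0 CPM, next to the 12.3 to 21.4 CPM of its group. Its Nudt7 level also lay below that of the HF fasted mice of the 30, so the separation of fed and fasted mice by Nudt7 does not hold with this mouse. KO HF fasted replicate 4, the library with heart markers, had Nudt7 at 128 CPM, Pank1 at 157 CPM, Coasy at 13.8 CPM and Vnn1 at 0.960 CPM from 3 counts, and Pank4 at 15.7 CPM, above all 30 other mice.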
